A study of Mus musculus with 12 samples.

Results

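The interleukin-1 family is a set of related cytokines with their receptors and antagonists, represented here by 8 listed genes in 4T1, a mouse mammary carcinoma cell line. The members are the ligands Il1a, Il1b, Il18 and Il33, the receptor antagonist Il1rn, and the receptor subunits Il1r1, Il1rap and Il1rl1. A member was measured where a probe set carried its symbol and no other, and 6 of the 8 had such a probe set, 1 each, among 19937 genes named on the array. Il1r1 and Il1rl1 had none and were not analysed here. Il1a and Il33 had been picked because their values differed in opposite directions between the FL and mutB1 lines. Those differences are therefore a description with no test, and comparisons that reuse FL or mutB1 arrays for these genes carry none either. The difference of ΔSAP from control rests on none of the arrays they were picked on. Its standard error and p come from the fit of all 12 arrays, so values from a fit of those lines alone are given beside them.

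The study profiled 4 stable 4T1 lines with 3 arrays each: 4T1-control, and 4T1-FL, 4T1-mutB1 and 4T1-ΔSAP, which are named for Mkl1 constructs. FL is read as full-length Mkl1, a coactivator of serum response factor now called Mrtfa; mutB1 and ΔSAP are read as forms altered in the B1 region and lacking the SAP domain. All 4 lines had the genetic background BALB/cfC3H and were kept for 48 h in medium with 0.03% serum, with no other treatment. The labels name a single line per construct and do not say whether it was a clone or a pool, or which promoter drove the construct, so construct and line cannot be told apart. The p-values reflect only how far 3 cultures of a line varied.

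Interleukin-1α, interleukin-1β, interleukin-18 and interleukin-33 are made as precursors. Interleukin-1α and interleukin-33 can be held in the nucleus and act as alarmins when cells are damaged, whereas interleukin-1β and interleukin-18 are matured mainly by caspase-1 in inflammasomes. Both forms of interleukin-1 bind Il1r1, interleukin-33 binds Il1rl1 (ST2), and each receptor pairs with the shared subunit Il1rap to signal through Myd88. In epithelia, Il1a and Il33 are the ligands best known as stored danger signals.

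Sequence just before the transcription start is shown for Il1a, Il1b and Il33, since Il1a and its neighbour Il1b differed in behaviour and Il33 was opposite to Il1a. The sequences are RefSeq's of build GRCm38.p6, which was not used to place probes. In RefSeq's gene order Il1a and Il1b are adjacent protein-coding genes. The stretches run from 34 to 5 bases before an annotated start, 5′ to 3′ on the gene's strand, with matches to TATAAA and to TGANTCA, the AP-1 motif, in capitals.
Il1a (GRCm38.p6, chr2:129309977-129310006, minus strand): acTATAAAaaggcagagaagccTGACTCAg
Il1b (GRCm38.p6, chr2:129371144-129371173, minus strand): gacTATAAAacaagggagggaaaacaagtt
Il33, inner start (GRCm38.p6, chr19:29945756-29945785, plus strand): taccaTATAAAtagaactgaagcgcgactg
The outer Il33 start is preceded by the following 250 bases, in which capitals mark TATAAA and GGAATG, the TEAD motif.
Il33, outer start (GRCm38.p6, chr19:29924863-29925112, plus strand): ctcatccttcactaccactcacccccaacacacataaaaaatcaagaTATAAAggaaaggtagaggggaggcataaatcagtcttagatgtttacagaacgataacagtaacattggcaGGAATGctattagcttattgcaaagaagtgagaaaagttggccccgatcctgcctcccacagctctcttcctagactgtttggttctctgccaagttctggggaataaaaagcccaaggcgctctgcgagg

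TATAAA began 32 bases before the start in Il1a, 31 in Il1b and 29 at the inner start of Il33. TGANTCA followed at 12 bases before the start in Il1a, and the same letters were not in the Il1b stretch. Both strands of the 250 bases before each start were searched in 13 windows of the 8 members. TATAAA occurred in 5 of them against 12.4% of all 32851 windows, TGANTCA in 2 against 6.75%, and GGAATG in 5 against 12.6%. The CArG box, the motif of serum response factor, occurred in 0 of the 13 and in 1.47% of all windows, and the kB motif of NF-kB in 1 (Il1r1, where it overlapped a GGAATG match) and in 3.9% of all. No matches overlapped in the sequences shown. A match is a string of letters and not evidence of a site.

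Values are log2 expression levels made by the authors with RMA, which has no detection call. Line means under 6.35, which is the smallest of the 12 array medians, are termed low, and such signal may be background. Mrtfa itself averaged 9.27 (control), 12.08 (FL), 11.29 (mutB1) and 11.92 (ΔSAP), with mutB1 the lowest of the 3 construct lines, and its part in the results was not tested. Of 8 mammary epithelial markers, 5 (Epcam, Cdh1, Krt7, Krt8 and Krt18) were above the low level in every line. Epcam was only just so in mutB1, with a mean of 6.41 and replicate 1 at 6.19. Summed over all 8, the log2 value was 74.5 to 75.2 in control, 75.9 to 76.3 in FL, 66.4 to 67.1 in mutB1 and 79.0 to 79.2 in ΔSAP. This epithelial sum was highest in ΔSAP and lowest in mutB1, as were Il18, Sigirr and Csf3 below, and its part in those results was not tested. The leukocyte markers were low at 10 of 12 genes in each line, Ptprc among them, with sums from 62.2 to 65.3. The exceptions were Cd68 in every line, Cd3e in control, FL and ΔSAP, and S100a8 in mutB1. Cd68 averaged 8.91 (control), 9.58 (FL), 8.53 (mutB1) and 9.33 (ΔSAP). Like Il1a below, it was higher in FL and ΔSAP, and its part in the results was not tested. All 6 mast cell and basophil markers and all 6 endothelial markers were low in every line. Of 8 fibroblast markers 4 were low in control, mutB1 and ΔSAP and 3 in FL. In cultures, a change in the share of expressing cells and a change in RNA per cell cannot be told apart.

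Il1a was low in the control and mutB1 lines and well above that level in FL and ΔSAP. The 3 control arrays read 4.88, 4.79 and 4.68, and the mutB1 arrays 5.56, 5.39 and 5.06. The FL arrays read 8.44, 8.38 and 8.59, and the ΔSAP arrays 8.60, 8.68 and 8.77. No array of FL or ΔSAP came near those of control or mutB1. In the comparison that did not enter the choice of genes, ΔSAP exceeded control by 3.90 ± 0.12 (SE, n = 3 arrays per line, limma adjusted p = 8.04e-09), or 14.9-fold. A fit of these lines alone gave an SE of 0.07 and a limma adjusted p of 1.05e-05. The other differences are given as description: FL was 3.69 ± 0.12 above control and 3.14 ± 0.12 above mutB1, and FL and ΔSAP differed by -0.21 ± 0.12. Every ΔSAP array lay above every FL array, the closest at 8.60 and 8.59. The mutB1 mean stood 0.55 ± 0.12 above control with every mutB1 array above every control array, but both means were low. Because the control mean was low, the measured differences against it may understate the true ones. The lncRNA record Gm14023 overlaps Il1a in RefSeq, and the probes were not checked for strand or position.

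Il33, the alarmin read by ST2, ran in the other direction, and its FL and ΔSAP levels stood further apart than those of Il1a. Control arrays read 8.14, 8.23 and 8.29 and mutB1 arrays 8.20, 8.28 and 8.17, which overlapped. The ΔSAP arrays read 6.77, 6.98 and 6.85, and the FL arrays were lowest at 5.42, 5.46 and 5.61, below the low level. ΔSAP was below control by the tested difference of -1.35 ± 0.07 (SE, limma adjusted p = 3.04e-07), a 2.55-fold lower level. The fit of these lines alone gave a limma adjusted p of 0.000191. As description, FL stood at -2.72 ± 0.07 from both control and mutB1, mutB1 and control differed by -0.002 ± 0.068, and FL stood at -1.37 ± 0.07 from ΔSAP. The FL and ΔSAP means of Il1a thus lay close together, while the ΔSAP arrays for Il33 lay between those of FL and those of the other lines without touching either. The fibroblast marker Pdgfra, a growth factor receptor, was likewise lowest in FL and next lowest in ΔSAP, at 10.76 (control), 9.38 (FL), 10.87 (mutB1) and 9.74 (ΔSAP). The sum of all 8 fibroblast markers was 51.6 to 51.9 in control, 50.2 to 50.8 in FL, 51.5 to 52.0 in mutB1 and 49.6 to 50.5 in ΔSAP. That sum includes Pdgfra and reached its lowest value in ΔSAP, whereas Il33 was lowest in FL. Dcn, another of the 8 markers, was above the low level only in FL. Pdgfra and the sum were lower in FL and ΔSAP, as Il33 was, and their part in its result was not tested. The lncRNA record Gm41832 overlaps Il33.

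**Figure D1:**
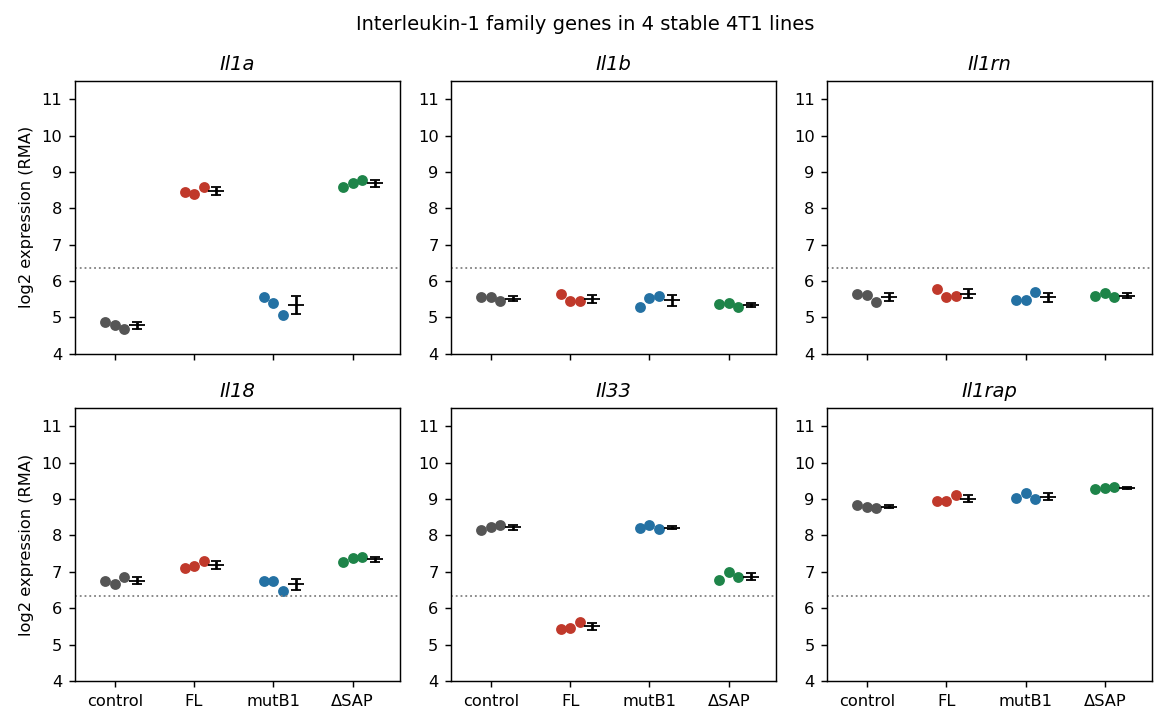
Log2 expression of the 6 measured interleukin-1 family genes in each array of the control, FL, mutB1 and ΔSAP lines. Points are arrays, the black bar is the line mean ± SD (n = 3), and the dotted line is the lowest array median, 6.35. Il1a is above that line only in FL and ΔSAP, Il33 falls below it only in FL, and Il1b and Il1rn lie below it in every array.

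Il18, an inflammasome-matured ligand known for inducing interferon gamma, was higher in FL and ΔSAP than in control and mutB1, by far less than Il1a. Its arrays read 6.76, 6.66 and 6.85 in control, 7.11, 7.15 and 7.31 in FL, 6.74, 6.74 and 6.47 in mutB1, and 7.27, 7.37 and 7.41 in ΔSAP. Every FL and ΔSAP array lay above every control and mutB1 array, and FL overlapped ΔSAP. The rise over mutB1 was 0.70 ± 0.09 in ΔSAP (limma adjusted p = 0.000182) and 0.54 ± 0.09 in FL (adjusted p = 0.000887). Over control it was 0.59 ± 0.09 in ΔSAP (limma adjusted p = 0.000559), or 1.51-fold, and 0.43 ± 0.09 in FL (adjusted p = 0.00317). The last of these did not pass after median centring (limma adjusted p = 0.0147), a further quantile normalization (0.0105) or with the replicate number as a block (0.0104), nor without control replicate 1 (0.0119), control replicate 2 (0.0145) or FL replicate 3 (0.0145). FL and ΔSAP differed by -0.16 ± 0.09 and mutB1 and control by -0.11 ± 0.09, neither past the threshold (limma adjusted p = 0.261 and 0.487). The RefSeq records of Bco2 and Tex12 overlap Il18.

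Il1b and its antagonist Il1rn were low in all 4 lines and passed in none of the 6 comparisons. The Il1b arrays ranged from 5.27 to 5.64, with line means between 5.35 in ΔSAP and 5.52 in control. The limma adjusted p for Il1b was between 0.181 and 0.983. Il1rn, which blocks Il1r1 without signalling, ranged from 5.42 to 5.79, with line means between 5.55 and 5.65 and limma adjusted p between 0.501 and 0.989. The widest Il1b difference, -0.17 ± 0.08 between ΔSAP and control, had all 3 ΔSAP arrays below the control arrays and did not pass. At such low signal, a missing call says little about whether either gene changed. The lncRNA record Il1bos overlaps Il1b.

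Il1rap, the accessory receptor subunit shared by the interleukin-1 and interleukin-33 receptors, was above the low level in every line and highest in ΔSAP. Arrays read 8.82, 8.79 and 8.76 in control, 8.94, 8.95 and 9.11 in FL, 9.02, 9.17 and 8.99 in mutB1, and 9.27, 9.31 and 9.34 in ΔSAP. The control arrays lay below all others and the ΔSAP arrays above all others, while FL and mutB1 overlapped. ΔSAP exceeded control by 0.52 ± 0.06 (limma adjusted p = 0.000125), or 1.43-fold. FL was lower than ΔSAP by -0.30 ± 0.06 (limma adjusted p = 0.00487), and mutB1 was higher than control by 0.27 ± 0.06 (adjusted p = 0.00864). These last differences were close to the threshold. FL against ΔSAP did not pass without FL replicate 1 or 2 or any of the ΔSAP replicates (limma adjusted p from 0.0118 to 0.0246), in the fit of those lines alone (0.0256) or with the block (0.0141). The mutB1 difference did not pass when any of 11 of the 12 arrays was left out, all but FL replicate 3 (0.0112 to 0.0361), after median centring (0.0179), in the fit of those lines alone (0.0324) or with the block (0.0214). FL and control differed by 0.21 (limma adjusted p = 0.0229), ΔSAP and mutB1 by 0.24 (0.013) and FL and mutB1 by -0.06 (0.547). The first passed after a further quantile normalization (0.00903), and the second passed in 5 of 20 alternatives, including those without FL replicate 3 (0.00713) and mutB1 replicate 2 (0.00522).

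Counted over the 6 measured members, with adjusted p at most 0.01 and no minimum fold, 4 differed between ΔSAP and control: Il1a, Il18 and Il1rap higher and Il33 lower. Of all 34760 probe sets, 14.8% passed in that comparison. Il1a and Il33 were picked for differing between FL and mutB1, so the count is not read against that share. Apart from them, Il18 and Il1rap passed, and Il1b and Il1rn did not. In the other comparisons Il1a and Il33 reuse arrays they were picked on and are not counted, which leaves 4 members. Il18 was the 1 of 4 that passed in FL against control, beside 20% of all probe sets, in FL against mutB1, beside 17.8%, and in ΔSAP against mutB1, beside 15.1%. Il1rap was the 1 of 4 that passed in FL against ΔSAP, beside 11.4%, and in mutB1 against control, beside 12.7%, both close to the threshold as given above. The series' own filter adds a minimum change of 2-fold and a minimum average of 4. Il1a and Il33 met it in ΔSAP against control, and none of the other 4 measured members met it in any comparison. Of all probe sets it kept 1.6% in FL against mutB1, 0.503% in FL against ΔSAP, 1.83% in FL against control, 1.21% in mutB1 against control, 1.34% in ΔSAP against control and 1.42% in ΔSAP against mutB1.

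**Figure D2:**
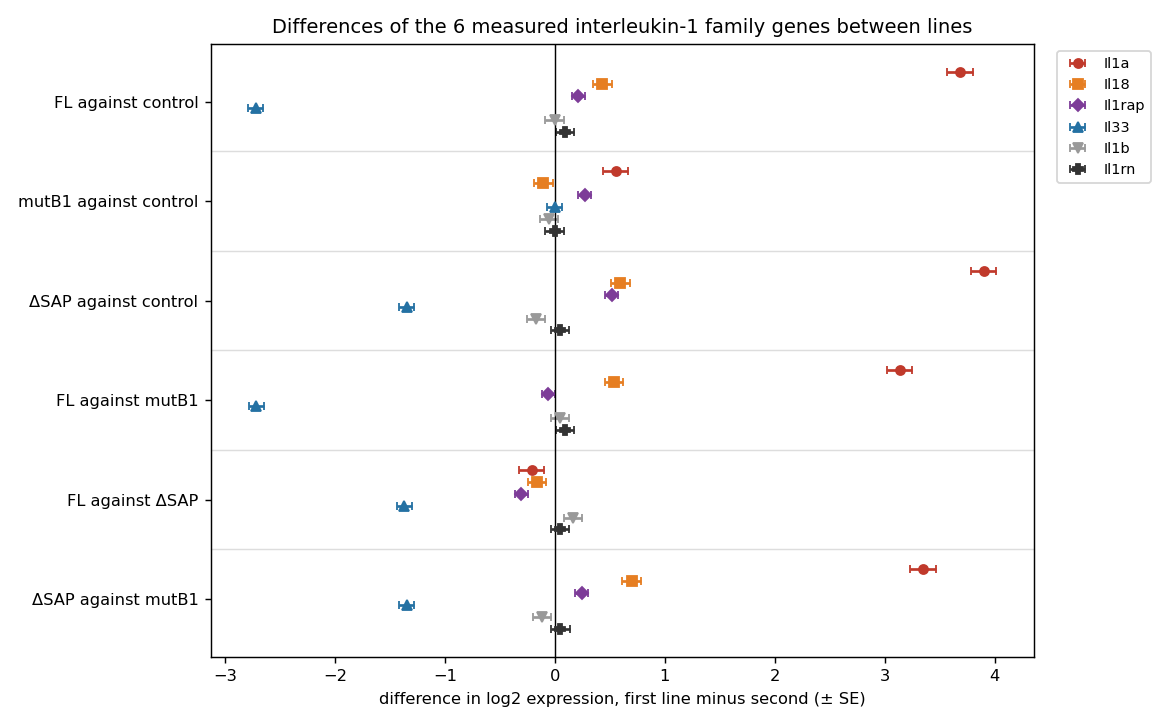
Differences in log2 expression of the 6 measured genes in each of the 6 comparisons, first line minus second, with the standard error from limma. Il1a lies more than 3 units to the right wherever FL or ΔSAP is set against control or mutB1, Il33 lies to the left in the same comparisons and in FL against ΔSAP, and the other genes stay within 1 unit of 0.

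The genes whose patterns over the 12 arrays were most like those of Il1a and Il33 were taken from 900 other genes with a mean of at least 4 and line means spanning at least 1 log2 unit. Pearson's r is a description only, since the 12 points are 3 cultures of each of 4 lines. The closest to Il1a were the metalloprotease Mmp10 (r = 0.994), the transcription factor Klf12 (0.992), the natriuretic peptide clearance receptor Npr3 (0.992), the immunoglobulin-like receptor Lilr4b (0.991) and Il18rap (0.990). Line means of Npr3 were 8.08 (control), 10.30 (FL), 8.13 (mutB1) and 10.69 (ΔSAP). Mmp10 spanned less, from 8.63 in control to 9.90 in ΔSAP. The closest to Il33 were the nuclear receptor Nr2f1 (r = 0.992), the aldolase Aldoc (0.991), the signalling inhibitor Spry1 (0.991), Sesn3 (0.990) and the acetyl-CoA synthetase Acss2 (0.988). Spry1 averaged 11.70 (control), 10.47 (FL), 11.74 (mutB1) and 11.01 (ΔSAP). The place of ΔSAP between the others follows from the choice of Spry1 for its likeness to Il33.

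Il18rap, the accessory subunit of the interleukin-18 receptor, belongs to the family although it is not among the 8 members. Its arrays read 6.31, 6.16 and 6.14 in control, 8.05, 8.02 and 8.12 in FL, 6.13, 6.25 and 6.17 in mutB1, and 8.10, 8.29 and 8.29 in ΔSAP. The control and mutB1 arrays, which overlapped, were all low, and the FL and ΔSAP arrays, which also overlapped, all stood well above them. Il18rap is named for its likeness to Il1a over these arrays and met the series' filter in FL and in ΔSAP against control. Its differences therefore follow from the choice and are given as description. ΔSAP exceeded control by 2.02 ± 0.07 and FL exceeded control by 1.86 ± 0.07. The step from ΔSAP to FL was -0.17 ± 0.07. In RefSeq's order of protein-coding genes, Il1r2, Il1r1, Il1rl2, Il1rl1, Il18r1 and Il18rap follow each other. Il18r1, the ligand-binding subunit and direct neighbour, was low in every line, with means from 3.89 to 4.05, as were Il1rl2 (4.00 to 4.29) and the decoy receptor Il1r2 (5.45 to 5.56). The raised signal was thus not seen in the measured neighbours, whose low values do not show that they were unchanged.

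Of the 7 other receptors on the list all were measured, and 5 were low in every line. Beside Il18rap, Sigirr, a receptor known for damping interleukin-1 and Toll-like signalling, was measured above that level throughout, at 10.66 (control), 10.78 (FL), 10.33 (mutB1) and 11.01 (ΔSAP). It was 0.34 ± 0.04 higher in ΔSAP than in control (limma adjusted p = 0.000135) and changed by -0.33 ± 0.04 in mutB1 (adjusted p = 0.000172), changes of about 1.27-fold and 1.26-fold. Among the receptors, 1 rose and 0 fell in FL against control, 2 rose and 0 fell in ΔSAP against control, and 0 rose and 1 fell in mutB1 against control. Over all probe sets 9.61% rose and 10.4% fell in the first of these, 6.96% and 7.83% in the second, and 5.83% and 6.89% in the third. Their median differences were 0.08, 0.08 and 0.01, beside -0.01, -0.03 and -0.001 over all probe sets.

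Among 6 other ligands and antagonists, the interleukin-36 genes (Il1f5, Il1f6, Il1f8 and Il1f9 in RefSeq) and Il1f10 were low in every line and none passed. The remaining one, Il18bp, encodes the soluble decoy that binds interleukin-18. Its arrays read 7.53, 7.42 and 7.33 in control, 8.27, 8.33 and 8.40 in FL, 8.58, 8.40 and 8.41 in mutB1, and 7.82, 7.50 and 7.77 in ΔSAP. FL and mutB1 were the high lines here, not FL and ΔSAP. The rise over control was 1.04 ± 0.09 in mutB1 (limma adjusted p = 1.66e-05) and 0.90 ± 0.09 in FL (adjusted p = 2.57e-05). In ΔSAP it was 0.27 ± 0.09 (limma adjusted p = 0.0561), and it passed without ΔSAP replicate 2, at a difference of 0.37 (adjusted p = 0.00873). Median differences of this list from control were -0.05 in FL, 0.09 in mutB1 and -0.09 in ΔSAP.

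The inflammatory caspases had their highest means in mutB1 and FL, as did Il18bp. Casp1, which matures interleukin-1β and interleukin-18, averaged 8.24 ± 0.13 (control), 8.94 ± 0.13 (FL), 9.70 ± 0.04 (mutB1) and 8.13 ± 0.22 (ΔSAP) (SD, n = 3). All mutB1 arrays lay above all others and the control and ΔSAP arrays overlapped. The difference from control was 1.46 ± 0.11 in mutB1 (limma adjusted p = 5.89e-06), 0.70 ± 0.11 in FL (adjusted p = 0.000669) and -0.11 ± 0.11 in ΔSAP (adjusted p = 0.528). Casp4, the sensor of intracellular lipopolysaccharide and Casp1's neighbour in RefSeq's order, averaged 6.43 ± 0.17 (control), 8.14 ± 0.04 (FL), 8.30 ± 0.14 (mutB1) and 7.02 ± 0.01 (ΔSAP). As description, since it is named for meeting the series' filter, it exceeded control by 1.87 ± 0.09 in mutB1 and 1.71 ± 0.09 in FL. The rise in ΔSAP, 0.59 ± 0.09 (limma adjusted p = 0.00068), fell short of that filter but shares the same control arrays. Casp1 and Casp4 are related genes, and their probes may share signal.

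The DNA sensor Aim2 was low in control (6.07 ± 0.25) and averaged 6.44 ± 0.10 in FL, 7.07 ± 0.22 in mutB1 and 7.28 ± 0.12 in ΔSAP. It is named because it met the series' filter in ΔSAP against control, so its 1.21 ± 0.14 higher level there is given as description. The inflammasome sensor Nlrp3 was low in every line, from 4.79 to 4.91, and passed in none of the comparisons. Of the 16 measured processing and inflammasome genes on a list of 18, 5 rose and 3 fell in FL against control, 5 rose and 0 fell in mutB1 against control, and 4 rose and 3 fell in ΔSAP against control, where 20%, 12.7% and 14.8% of all probe sets passed. The medians were 0.08, 0.03 and -0.03.

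**Figure D3:**
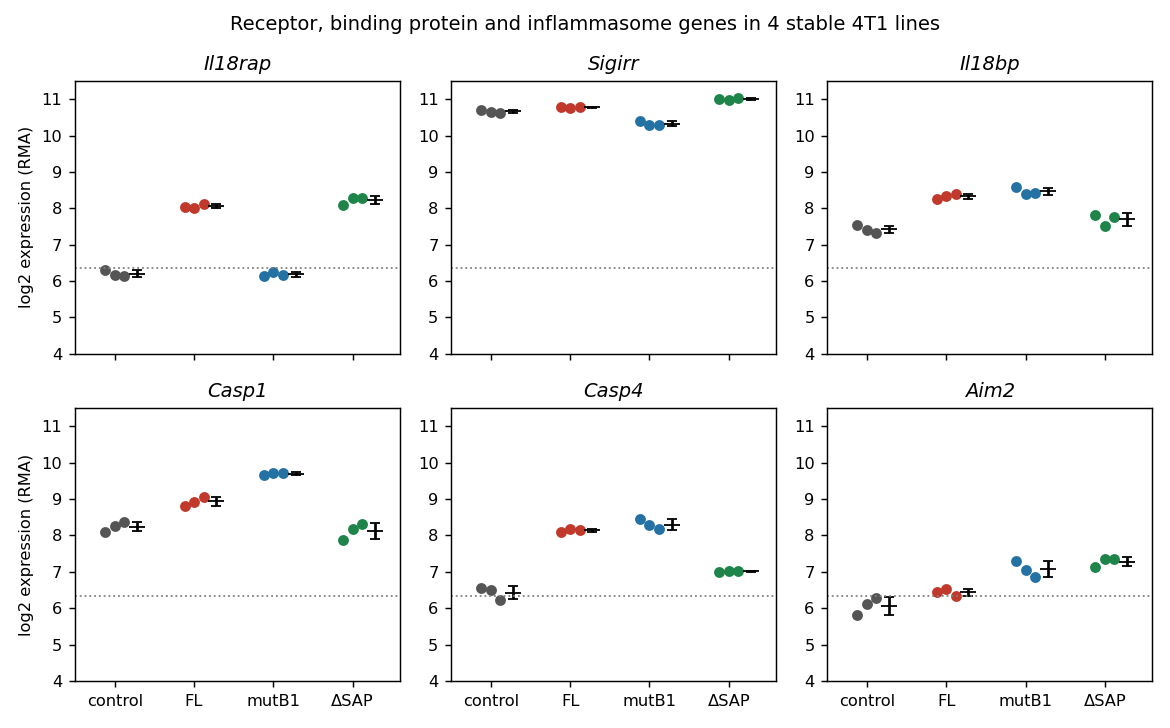
Log2 expression by array of Il18rap, Sigirr, Il18bp, Casp1, Casp4 and Aim2 in the 4 lines, with line means ± SD (n = 3) and the lowest array median, 6.35, as a dotted line. Il18rap is high in FL and ΔSAP, whereas Il18bp, Casp1 and Casp4 have their highest means in mutB1, and Aim2 has its highest in ΔSAP.

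The signalling genes below the receptors changed by less than 2-fold in every comparison. Of 19 listed, 17 were measured, and Irak4 and Chuk were not analysed here. In FL against control 4 rose and 5 fell, in mutB1 against control 3 rose and 2 fell, and in ΔSAP against control 1 rose and 3 fell, with medians of -0.0002, -0.02 and -0.05. Of all probe sets 20%, 12.7% and 14.8% passed. The adaptor Myd88 averaged 11.25 (control), 11.33 (FL), 11.53 (mutB1) and 11.04 (ΔSAP). Its widest difference was -0.49 ± 0.04, in ΔSAP against mutB1 (limma adjusted p = 5.71e-06). The kinase Irak1 ranged only from 9.75 to 9.79 and passed in none of the comparisons. The ubiquitin ligase Traf6 differed most between FL and mutB1, with FL higher by 0.29 ± 0.03 (limma adjusted p = 0.000137). Its rise over control in FL was 0.16 ± 0.03 (limma adjusted p = 0.00566), which did not pass in 8 of 20 alternatives. The kinase Irak2 averaged 8.80 (control), 8.39 (FL), 8.28 (mutB1) and 7.87 (ΔSAP). It was named after its values were seen, so its widest difference, -0.93 ± 0.08 in ΔSAP from control, is description.

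Genes known to respond to interleukin-1 in many cells were set beside the ligands. Of 24 listed, 23 were measured. Cxcl2, Il6, Csf2 and Saa3 were low in every line, where signal may be background. All 4 are counted as rising in FL against control, Il6 and Saa3 in mutB1, and Cxcl2 and Csf2 in ΔSAP. In FL against control 16 rose and 3 fell, in mutB1 against control 11 rose and 3 fell, and in ΔSAP against control 11 rose and 4 fell. The medians were 0.52, 0.23 and 0.27, beside 9.61%, 5.83% and 6.96% of all probe sets that rose and 10.4%, 6.89% and 7.83% that fell. These comparisons share the control arrays, and these genes answer to many signals besides interleukin-1. Some of the rises counted were close to the threshold. Cxcl2 in ΔSAP against control did not pass in 10 of 19 alternatives, nor Lcn2 in mutB1 against control in 12 of 20. In FL against ΔSAP, 10 rose and 2 fell, with a median of 0.39 beside 0.03 over all probe sets, of which 5.73% rose and 5.7% fell.

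The neutrophil chemoattractant Cxcl5 averaged 7.71 ± 0.04 (control), 8.81 ± 0.07 (FL), 6.99 ± 0.05 (mutB1) and 7.79 ± 0.10 (ΔSAP) (SD, n = 3). The adhesion molecule Icam1 averaged 7.69 ± 0.07, 8.90 ± 0.04, 7.58 ± 0.03 and 7.33 ± 0.02 in the same order. Both were highest in FL, while the ΔSAP mean of Icam1 lay below control and the ΔSAP arrays of Cxcl5 overlapped those of control. The monocyte chemoattractant Ccl2 was at 10.09 (control), 12.03 (FL), 11.67 (mutB1) and 10.58 (ΔSAP), and its neighbour in function Ccl7 at 6.73, 8.01, 7.39 and 6.93. Nos2, inducible nitric oxide synthase, was at 5.90, 7.57, 6.14 and 6.37, and the chemokine Cxcl2 was low in every line but highest in FL, at 6.15. These 6 genes are named because they met the series' filter in FL against ΔSAP, so a 2-fold difference and a passing p there follow from the choice. As description, FL exceeded ΔSAP by 1.01 ± 0.06 for Cxcl5 up to 1.57 ± 0.04 for Icam1.

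Other response genes took different orders. Csf3, the granulocyte growth factor, averaged 8.76 (control), 9.19 (FL), 7.77 (mutB1) and 9.60 (ΔSAP), the line order in which Il18 also ran. The collagenase Mmp13 was at 6.91 in control and higher in all 3 construct lines, where it met the series' filter by which it is named. As description, it exceeded control by 1.44 ± 0.07 in FL, 1.15 ± 0.07 in mutB1 and 1.48 ± 0.07 in ΔSAP. Vcam1, an adhesion molecule for leukocytes, and Lcn2, an iron-scavenging acute-phase protein, were lowest in ΔSAP. Both met the series' filter, by which they are named, in ΔSAP against control. As description, they changed there by -1.14 ± 0.05 and -1.001 ± 0.034, and in FL by -0.44 and -0.48 from control. C3 was not analysed here.

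**Figure D4:**
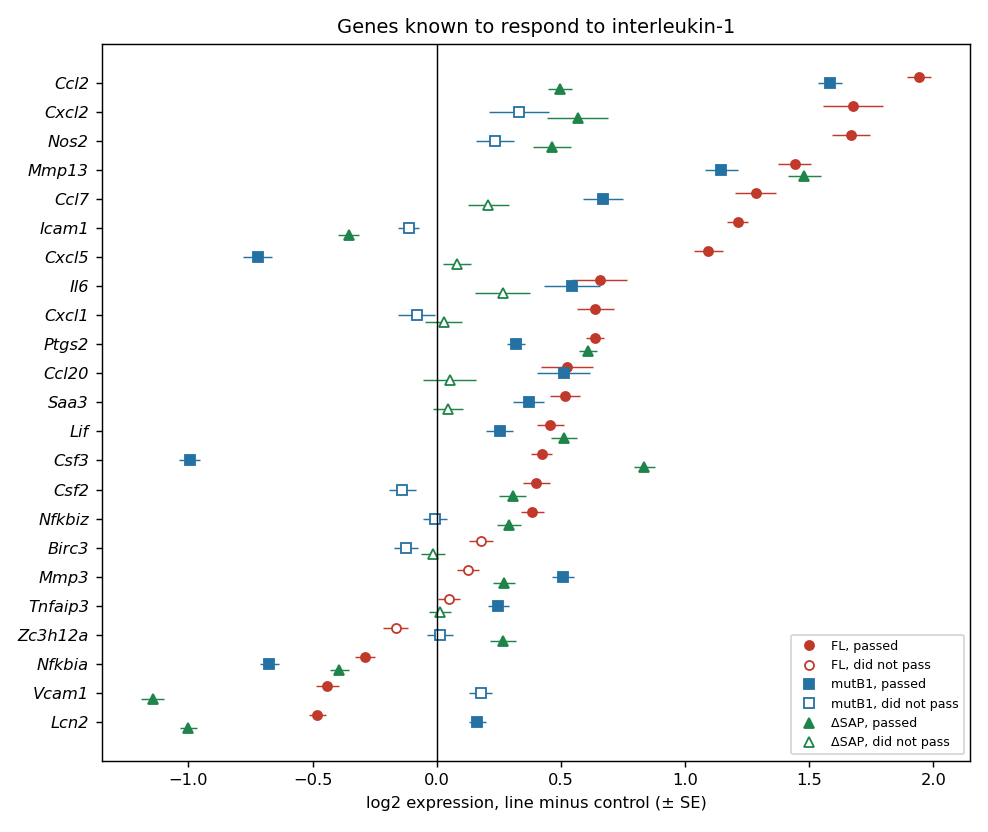
Difference from control in log2 expression (± SE, limma) of 23 genes known to respond to interleukin-1, for FL (circles), mutB1 (squares) and ΔSAP (triangles), filled where adjusted p was at most 0.01. Icam1 and Cxcl5 are raised in FL and not in ΔSAP, whereas Mmp13 is raised in all 3 lines and Vcam1 and Lcn2 are lowest in ΔSAP.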

How the data were processed

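Labelled cDNA made from total RNA of 12 cultures was hybridized to Affymetrix mouse gene arrays, per the series design text. The deposited values are log2 expression values that the authors made with RMA (background correction, quantile normalization and summarization), per the series design text with the affy package of Bioconductor 2.4, in R 2.10.0 per the submitters' processing notes. The genome build and the probe set definition were not stated by the sources at hand, and the number of arrays, 3 per line, limits the precision. Of 34760 probe sets, 21640 had 1 gene symbol in GEO's platform annotation, 1321 several and 11799 none. Symbols were updated by Entrez identifier for 21553 through RefSeq's table of GRCm38.p6, and the brightest probe set stood for a gene. All 12 arrays entered 1 limma fit (lmFit, then eBayes; limma 3.58.1, R 4.3.3). Its p-values were adjusted over the 34760 probe sets by Benjamini-Hochberg, with a threshold of 0.01. On simulated arrays with 50 probe sets changed at each size, the fit recovered 48 of 50 changes of 1 log2 unit and 32 of 50 of 0.5. There were 2 false calls among the unchanged remainder of the 34760 probe sets. Far more probe sets passed in the real comparisons, so that count does not carry over to them. The members and gene lists were chosen with earlier results of these data known. The level below which a line mean is termed low was chosen after the values were seen. Genes named beyond the members are those that met the series' filter in any comparison, some named by rule (Myd88, Irak1, Irak4, Traf6, Sigirr, Il1r2, Casp1, Nlrp3, Il18bp), and the 5 most alike in pattern to Il1a and to Il33. Irak2, Il18r1, Il1rl2, Il1f10, Il6, Csf2, Saa3, the interleukin-36 genes and the cell type markers stand outside that rule. For genes named by the filter, a passing p and a 2-fold difference in some comparison follow from the choice. The alternatives tried were median centring, a further quantile normalization, filters at a mean of 4 and of 6, fits of only the 2 lines compared, eBayes with trend and robust settings, the second brightest probe set, the replicate number as a block, and each array left out.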

Additional observations from a re-analysis of the deposited data

How the results depend on the processing

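Of 26 tested member differences, 14 kept their direction and their side of the threshold under all alternatives run. These include Il1a and Il33 in ΔSAP against control, between 3.85 and 3.95 for Il1a and between -1.41 and -1.30 for Il33. They also include differences of Il1b and Il1rn that did not pass, where signal was low. Each measured member had 1 probe set, so the second brightest setting could change none of them. The other differences of Il1a and Il33 carry no test, and Il1a in mutB1 against control ranged from 0.44 to 0.69. Il1b and Il1rn had no value under the filter at a mean of 6. The following counts are over all 6 measured members, Il1a and Il33 included, unlike the counts over 4 members above. Il1a and Il33 carry no test in these comparisons, which reuse arrays they were picked on. The counts therefore describe only how the processing moved them, and no result is drawn from them for Il1a or Il33. The count of members passing in FL against ΔSAP fell from 2 to 1 in the fit of only those lines and with the replicate block, and was 1 to 2 with arrays left out. In mutB1 against control the count fell from 2 to 1 after median centring. It fell to 0 in the fit of only those lines and to 0 with the replicate block. It was 0 to 2 with arrays left out, and 0 in 12 of 20 alternatives. Over all 34760 probe sets the fits of only those lines also lowered the passing count, from 3972 to 1715 in FL against ΔSAP. In mutB1 against control it fell from 4422 to 2624. With the block these counts were 3132 and 3748, and median centring gave 3482 in mutB1 against control. With arrays left out the count was 2 to 3 in FL against control and 3 to 4 in ΔSAP against mutB1. Over the 69 measured pathway genes, fits of only the lines compared, which use fewer arrays, lowered the passing count. It fell from 26 to 15 in mutB1 against control, from 28 to 18 in ΔSAP against control and from 30 to 16 in ΔSAP against mutB1. In the same order, the count over all probe sets fell from 4422 to 2624, from 5138 to 2948 and from 5237 to 2915. Il18 in FL against mutB1 did not pass in the fit of only those lines (limma adjusted p = 0.0101). Signs turned when arrays were left out for differences near 0 that never passed: Il1b from -0.043 to 0.11 in FL against mutB1, -0.067 to 0.031 in FL against control and -0.11 to 0.039 in mutB1 against control; Il1rn from -0.028 to 0.083 in FL against ΔSAP, -0.071 to 0.037 in mutB1 against control and -0.022 to 0.085 in ΔSAP against control; Il18rap from -0.054 to 0.033 in mutB1 against control; and Casp1 from -0.21 to 0.0081 in ΔSAP against control. The cause of these changes was not tested. The replicate numbers did not pair the arrays: deviations of same-numbered arrays of different lines correlated at -0.20 to 0.17, over 0.1 in 2 of 18 pairs, and 3 of 12 arrays correlated best with their own number. With that number as a block, Il18 in FL against control (adjusted p = 0.0104) and both near-threshold Il1rap differences no longer passed in limma.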
